A study of Rattus norvegicus with 6 samples.

Results

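The miR-130 and miR-301 family was followed in small RNA libraries made from small extracellular vesicles, the membrane-bound particles that cells shed into blood, of rat plasma. The family is represented here by 4 mature microRNAs (miRNAs), rno-miR-130a-3p, rno-miR-130b-3p, rno-miR-130b-5p and rno-miR-301a-3p, found by name among the 764 rows of the deposited count table. They were picked on earlier results of the same comparison, in which miR-130b-5p passed the test and miR-130b-3p did not, so every difference between the groups in these members and in the 2 arms of miR-130b is given as a description, with no test of its own. Where a member passed a threshold in the fit over all miRNAs, that is the value the choice used and supports nothing here. The diabetic group (3 libraries) came from male Sprague-Dawley rats made diabetic with streptozotocin, a toxin of pancreatic beta cells, at 65 mg/kg, and labelled as diabetic for 8 weeks, with fasting glucose above 11.1 mmol/L as the criterion. The control group (3 libraries) came from control rats of the same strain and sex, whose own treatment is not stated further. All rats were wild type and 6 to 8 weeks old when obtained, vesicles came from 2 ml of plasma, and RNA of 18 to 30 nucleotides was sequenced. Streptozotocin removes beta cells, so the group models insulin deficiency and not insulin resistance, and an effect of the toxin cannot be told apart from one of diabetes.

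A miRNA gene is transcribed as a hairpin, from which a 5p and a 3p strand are cut. One strand is usually loaded into an Argonaute protein and guides it to messenger RNAs that pair with its seed, bases 2 to 8, while the other is mostly degraded. The 3p strands of the miR-130 and miR-301 family carry one shared seed and are the strands usually studied. miR-130a and miR-130b repress PPARG, the master regulator of fat cell formation, in human and mouse cells, and miR-130a represses the anti-angiogenic homeobox genes GAX and HOXA5 in human endothelial cells. In plasma vesicles the family can come from any cell type that releases vesicles, and fewer vesicles from a cell type cannot be told apart from less of a miRNA in each vesicle.

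The mature sequences show why the 2 arms of one hairpin are different molecules and why neighbouring members are hard to separate. They are given here from the RefSeq annotation of GRCr8, 5′ to 3′, with the seed in capitals.
miR-130a-3p: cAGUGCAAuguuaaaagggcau
miR-130b-3p: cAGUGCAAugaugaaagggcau
miR-301b-3p: cAGUGCAAugguauugucaaagc
miR-130b-5p: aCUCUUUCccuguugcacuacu
miR-301b-5p: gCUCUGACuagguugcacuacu
miR-301a-5p: gCUCUGACuuuauugcacuac
Mature sequences were found for 3 of the 4 members and for 7 of the 8 rows of the table that belong to the family, and that of miR-301a-3p was not used here. The 3p strands of miR-130a, miR-130b and miR-301b share the seed AGUGCAA, which no other of the 689 rows with a sequence had. miR-130a-3p and miR-130b-3p were identical at 20 of 22 positions and 2 edits apart, so reads of one can be counted for the other, and their single values are uncertain to that extent. The seed of miR-130b-5p, CUCUUUC, occurred in this 1 row alone among the 689. The nearest other row to miR-130b-5p was miR-301b-5p, at 6 edits. All 3 of these 5p strands hold UUGCACU, the reverse complement of the 3p seed, near their 3′ end. That motif, searched on the strand of the miRNA, was present in 8 of 689 rows (1.16%).

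The miR-130b hairpin lies at chr11:97384380-97384461 (GRCr8, plus strand), 269 bases downstream of the miR-301b hairpin at chr11:97384033-97384110, and both lie within the span of a protein-coding gene annotated as 2610318N02Rikl. Its full sequence is shown because the arms cut from it are what the comparison turns on; the capitals mark the 5p arm and then the 3p arm.
miR-130b hairpin: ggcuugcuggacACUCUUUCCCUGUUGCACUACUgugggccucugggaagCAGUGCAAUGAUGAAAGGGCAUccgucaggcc
The hairpin of miR-130a lies at chr3:90229228-90229315 (minus strand) within no other annotated gene. The hairpin of miR-301a lies at chr10:72422599-72422698 (plus strand), within the spans of Ska2, which encodes a spindle and kinetochore protein, and Prr11.

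Library totals ran from 7490383 to 8403856 miRNA counts in the diabetic group and from 6254077 to 8930730 in the control group. The family was a minor part of this RNA: by mean CPM (a miRNA's count divided by its library total, times 1e+06), miR-130b-5p ranked 194, miR-130a-3p 229, miR-130b-3p 267 and miR-301a-3p 374 among 764 rows. Libraries were compared after TMM scaling, which assumes that most miRNAs do not differ; its factors did not overlap between the groups, at 1.12 to 1.27 in diabetic and 0.702 to 0.978 in control libraries. Values called normalized CPM use that scaling. The count table lists miRNAs alone, so vesicle proteins could not be checked. The miRNA markers of erythroid cells (4 of 4 with counts) summed to between 5.11% and 8.84% of counts in diabetic and 7.01% and 18.3% in control libraries, those of platelets (4 of 4) to between 2.67% and 3.07% and between 1.49% and 2.01%, and those of liver (4 of 4) to between 5.78% and 8.59% and between 3.15% and 21.0%, in that order of groups. The platelet list did not overlap between groups on this scale of library totals. On that scale 32.6% of the 362 tested miRNAs were higher in diabetic libraries without overlap. After TMM scaling the platelet markers differed in direction. Their log2 fold changes were 1.06 (miR-223-3p), 0.78 (miR-126a-3p), 1.19 (miR-126a-5p) and -0.20 (miR-191a-5p). The part of these cell types in the results that follow was not tested.

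miR-130b-5p, the most frequent member in control libraries, had a lower level in diabetic libraries. Its counts were 69, 92 and 123 in diabetic replicates 1, 2 and 3, and 200, 295 and 303 in control replicates 1, 2 and 3. In normalized CPM these were 7.23, 9.53 and 13.0 in diabetic and 27.9, 48.2 and 66.0 in control libraries. Every diabetic library lay below every control library, with a gap of values between the groups that was wider than the range within the diabetic group and narrower than the range within the control group. The means were 9.94 ± 2.93 normalized CPM in diabetic and 47.4 ± 19.1 in control libraries (SD, n = 3 each). In edgeR's quasi-likelihood fit the log2 fold change was -2.25 (SE 0.44). With the deposited totals as the only scaling the means were 12.0 ± 2.71 CPM in diabetic and 38.6 ± 14.1 CPM in control libraries, again without overlap, and the log2 fold change was -1.69 (SE 0.43). The authors' deposited table gives the same size, -1.69, from mean CPM. The share of all tested miRNAs lower without overlap was not counted on the scale of deposited totals.

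Of the 4 members, 3 passed the filter on low counts, and 1 of these, miR-130b-5p, was called at an adjusted p under 0.05. Among all 362 miRNAs that passed, 1.66% were called in either direction and 1.1% were called lower in diabetic libraries. Groups without overlap in normalized CPM were common, at 27.9% of the 362 in either direction and 14.6% lower in diabetic libraries. Since the call of miR-130b-5p was known when the family was picked, nothing is read from that count. The call itself was lost with upper quartile scaling and when diabetic replicate 1, diabetic replicate 2, control replicate 2 or control replicate 3 was left out, where the log2 fold change still lay between -2.52 and -1.96.

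The other strand of the same hairpin, miR-130b-3p, had nearly equal levels in the groups after scaling. Its counts were 57, 50 and 57 in diabetic and 44, 35 and 21 in control replicates 1, 2 and 3. Normalized CPM were 5.97, 5.18 and 6.05 in diabetic and 6.14, 5.72 and 4.57 in control libraries. The groups overlapped, with the highest library a control and the lowest a control. The log2 fold change was 0.060 (SE 0.40), which is smaller than its error. With library size only, all 3 diabetic libraries were above all 3 controls (6.99 ± 0.546 CPM in diabetic and 4.58 ± 1.23 CPM in control libraries, SD, n = 3 each), as did 32.6% of all tested miRNAs. The log2 fold change was then 0.61 (SE 0.44), beside a shift of 0.59 in the median of all 362 miRNAs between the scalings, and it was -0.23 with upper quartile factors. The direction of miR-130b-3p therefore depended on the scaling.

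miR-130a-3p, the member with known roles in endothelial and fat cells, did not separate the groups. It had 133, 99 and 115 counts in diabetic and 166, 58 and 51 counts in control replicates 1, 2 and 3. Normalized CPM were 13.9, 10.3 and 12.2 in diabetic and 23.2, 9.49 and 11.1 in control libraries. Control replicate 1 was the highest library, control replicate 2 the lowest, and control replicate 3 lay within the diabetic range. The means of 12.1 ± 1.84 normalized CPM in diabetic and 14.6 ± 7.48 in control libraries (SD, n = 3 each) gave a log2 fold change of -0.27 (SE 0.43). Its sign turned without control replicate 1 (0.22) and with library size only (0.31), and with upper quartile factors it was -0.55.

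miR-301a-3p, which in human cells represses NKRF, an inhibitor of the inflammatory factor NF-κB, was near the detection limit. It had 9, 0 and 2 counts in diabetic and 13, 15 and 6 counts in control replicates 1, 2 and 3. The exact 95% Poisson intervals were 4.12 to 17.1 counts for diabetic replicate 1 and 2.2 to 13.1 counts for control replicate 3, so these overlapped. The count of 0 in diabetic replicate 2 allows a level of up to 0.395 CPM at a limit of 3 counts. The miRNA failed the filter on low counts and entered no main test. In normalized CPM the groups did not overlap (0.943, 0 and 0.212 in diabetic, 1.81, 2.45 and 1.31 in control libraries), but in CPM by library size they did, since diabetic replicate 1 at 1.2 CPM stood above control replicate 3 at 0.917 CPM. Among the 362 miRNAs past the filter, 14.6% were lower in diabetic libraries without overlap in normalized CPM. Intervals and limits cover counting error only, because PCR copies cannot be told from separate molecules.

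**Figure D1:**
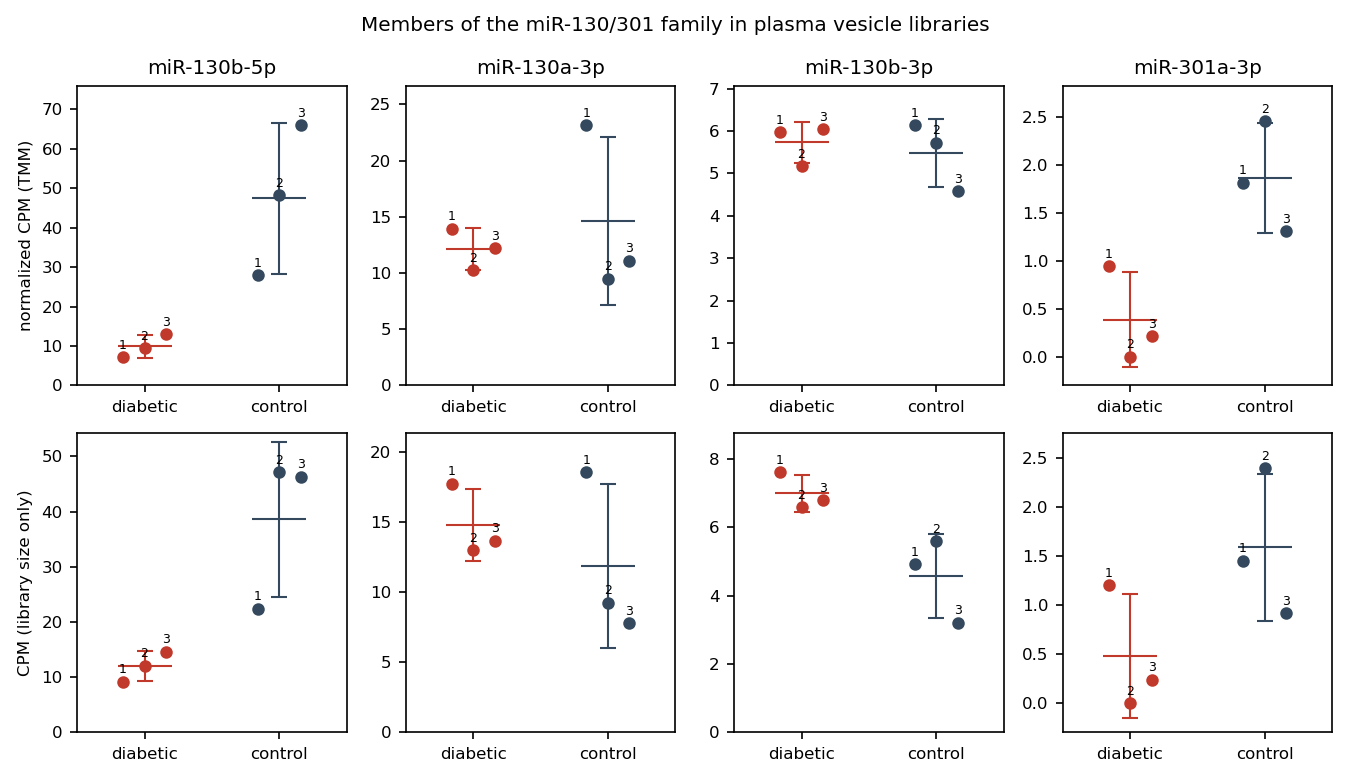
Levels of the 4 members in each library, with TMM scaling (top, normalized CPM) and with library size only (bottom, CPM); points are libraries numbered by replicate, and bars are the group mean ± SD (n = 3). miR-130b-5p is lower in all 3 diabetic libraries than in all 3 controls on both scales, while miR-130b-3p separates the groups only with library size as the scaling.

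The 2 arms of miR-130b are counted in the same library, so their ratio needs no scaling between libraries. The 5p arm made up 54.8%, 64.8% and 68.3% of the hairpin's counts in diabetic replicates 1, 2 and 3, with exact (Clopper-Pearson) 95% intervals of 45.7% to 63.6%, 56.3% to 72.6% and 61.0% to 75.05%. In control replicates 1, 2 and 3 it made up 82.0%, 89.4% and 93.5%, with intervals of 76.6% to 86.6%, 85.6% to 92.5% and 90.3% to 95.9%. No interval of a diabetic library reached that of a control library. These intervals cover counting error only, and those of control replicates 1 and 3 did not overlap each other either. The 5p arm was thus the more frequent one in all 6 libraries, though the interval of diabetic replicate 1 included 50%. Group means were 62.6% ± 7.04 in diabetic and 88.3% ± 5.85 in control libraries (SD, n = 3 each).

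On the log2 scale, with 0.5 added to each count, the ratio of 5p to 3p was 0.27, 0.87 and 1.10 in diabetic and 2.17, 3.06 and 3.82 in control libraries. The difference of the means was -2.27, a 4.81-fold lower ratio of 5p to 3p in diabetic libraries. It stayed between -2.69 and -1.86 when any 1 library was left out. Because miR-130b-3p had a log2 fold change near 0 after TMM scaling, nearly all of this difference lay in the 5p arm on that scale. With library size only, the same difference was made up of a lower 5p arm (-1.69) and a higher 3p arm (0.61).

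**Figure D2:**
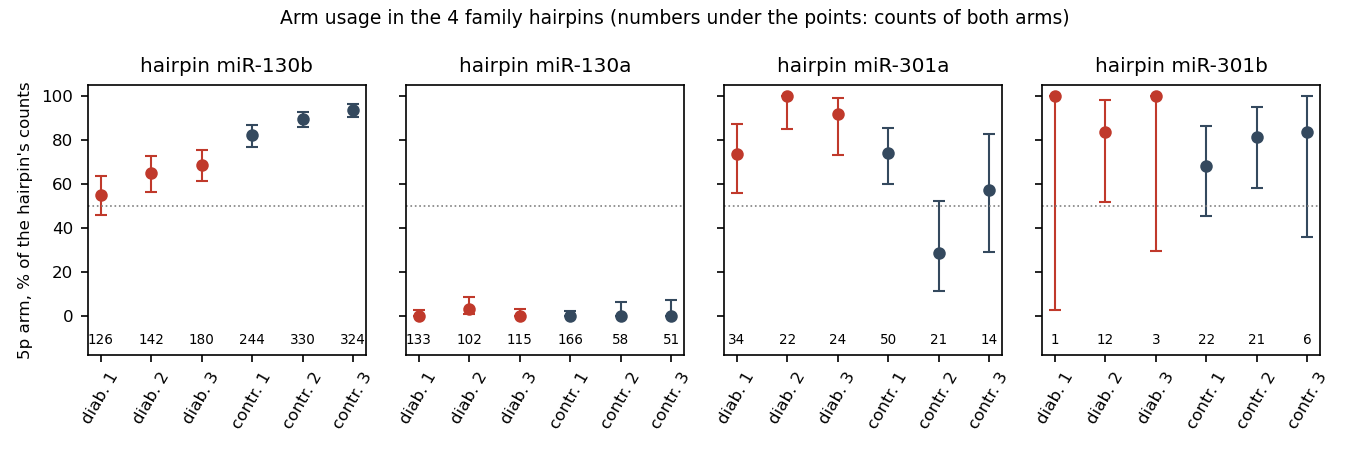
Share of the 5p arm among the counts of each family hairpin (y axis, %), by library, with exact 95% binomial intervals; the numbers under the points are the counts of both arms. In miR-130b the diabetic libraries lie between 54.8% and 68.3% and the control libraries between 82.0% and 93.5%, while the miR-301a and miR-301b shares rest on 50 counts or fewer per library.

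Arm ratios differed between the groups in many hairpins. Of 283 hairpins with both arms listed under one name, 95 had both arms past the filter, and in 37.9% of these the arm ratios did not overlap between groups. In 18.9% of the 95 they did not overlap and were lower in diabetic libraries, as in miR-130b. The median difference over the 95 was 0.018, the quartiles were -0.70 and 0.95, and the extremes -2.47 and 3.62. miR-130b was the fifth lowest and the eighth by size. Its nearest hairpins in that order were miR-23a (-2.39), miR-132 (-2.34) and miR-200b (-2.19), and in these the 3p arm had more CPM summed over the libraries, though for miR-132 not in every library, while in miR-130b the 5p arm had more. Over the 95 hairpins, the arm with fewer counts had a median log2 fold change of -0.048 and the arm with more counts 0.12, beside 0.019 over all 362 tested miRNAs. In miR-130b the arm with more counts was the one lower in diabetic libraries.

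**Figure D3:**
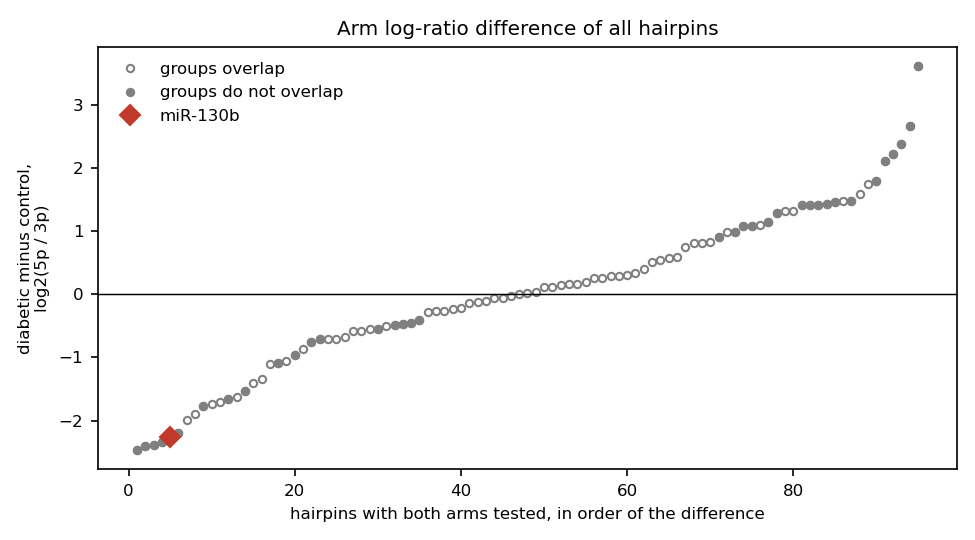
Difference between diabetic and control libraries in the mean log2 ratio of 5p to 3p counts (y axis), for the 95 hairpins with both arms tested, in rising order (x axis). Filled points are hairpins whose groups did not overlap; miR-130b, at -2.27, is the fifth lowest.

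The table held 4 more rows of the family, all other arms or the miR-301b strands, and 1 of them passed the filter. miR-301a-5p, the other strand of miR-301a, had 25, 22 and 22 counts in diabetic and 37, 6 and 8 counts in control replicates 1, 2 and 3, and a log2 fold change of -0.15 (SE 0.65). Control replicate 1 was its highest library, as for miR-130a-3p, and the other 2 controls were its lowest. miR-301b-5p, cut from the hairpin next to miR-130b, had 1, 10 and 3 counts in diabetic and 15, 17 and 5 in control replicates 1, 2 and 3. miR-301b-3p had 0, 2 and 0 counts in diabetic and 7, 4 and 1 in control replicates 1, 2 and 3. Both miR-301b strands were thus sparser in diabetic libraries, with an overlap between groups in the raw counts and in CPM by library size. In normalized CPM the groups were narrowly apart, with the nearest libraries at 1.04 (diabetic) and 1.09 (control) for miR-301b-5p and 0.207 (diabetic) and 0.218 (control) for miR-301b-3p. In raw counts these libraries, diabetic replicate 2 and control replicate 3, stood in the other order, at 10 against 5 and 2 against 1. The gap was thus present only after TMM scaling, by which 14.6% of the 362 tested miRNAs were lower in diabetic libraries without overlap. miR-130a-5p was counted in 1 library alone, with 3 counts in diabetic replicate 2.

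The family hairpins differed in which arm was counted. miR-130a was almost purely 3p, with 347 of 350 counts in diabetic and 275 of 275 counts in control libraries. miR-130b was mostly 5p, with 284 of 448 counts in diabetic and 798 of 898 counts in control libraries. miR-301b was also mostly 5p, with 14 of 16 counts in diabetic and 37 of 49 counts in control libraries. In miR-301a the 5p arm held 69 of 80 counts in diabetic and 51 of 85 counts in control libraries, so its share was higher in diabetic libraries (86.3%) than in control libraries (60%), opposite to miR-130b. In control replicate 2 the 3p arm of miR-301a was the more frequent (15 against 6 counts), and diabetic replicate 1 (73.5% 5p) lay within the control range of 28.6% to 74.0%.

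The order of the members' levels was compared within libraries over all 6. The choice of the family used differences between the groups and not this order. The 2 arms of miR-130b, though, were picked with their differing results known, so nothing is read from the p-value of that pair. A level here is a relative count, as adaptor ligation favours some small RNAs over others. miR-130b-5p exceeded miR-130b-3p in 6 of 6 libraries, by 3.69-fold on average. That average describes neither group, as the excess was 1.68-fold in diabetic and 8.09-fold in control libraries. miR-130a-3p exceeded miR-130b-3p in 6 of 6, by 2.27-fold. Both of these excesses, and each excess of the other 3 members over miR-301a-3p (by 8.4-fold to 31.0-fold with 0.5 added to each count), had an adjusted p of 0.0375 in a two-sided exact paired permutation test with sign flips over 6 libraries, Benjamini-Hochberg adjusted over 6 pairs. The unadjusted p of 0.03125 is the smallest that 6 libraries allow. It is reached whenever the sign is the same in all 6, so it shows no more than that. miR-301a-3p failed the filter on low counts that the other 3 members passed. The excesses over it restate that in part, so nothing is read from their p-values. The folds over miR-301a-3p rest in part on diabetic replicate 2, where it had no count. Over the other 5 libraries, a choice made after seeing the data, they were 21.7-fold for miR-130b-5p, 11.9-fold for miR-130a-3p and 5.11-fold for miR-130b-3p. These folds pool groups that differed. Over all 6 libraries the mean log2 ratios were 5.34, 5.66 and 4.59 in diabetic and 4.56, 2.84 and 1.55 in control libraries, in that order of members. miR-130b-5p and miR-130a-3p, the 2 most frequent, could not be ordered (adjusted p = 0.344, exact permutation test; mean log2 ratio 0.70, SD 1.42). miR-130b-5p was the higher of the pair in 1 of 3 diabetic and 3 of 3 control libraries, and their log2 ratio averaged -0.32 ± 0.55 in diabetic and 1.72 ± 1.26 in control libraries (SD, n = 3 each).

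Summed over the 4 members, the family held 35.8, 31.7 and 35.3 CPM in diabetic and 47.4, 64.4 and 58.3 CPM in control replicates 1, 2 and 3. Every diabetic library lay below every control library. The mean sums were 34.3 ± 2.23 CPM in diabetic and 56.7 ± 8.64 CPM in control libraries (SD, n = 3 each). The sum includes miR-130b-5p, whose lower level was known when the family was picked, so nothing is read from this separation. The share of all tested miRNAs lower without overlap was 14.6% in normalized CPM and was not counted in CPM. Without the 5p strand the picture differed: the 3 members that are 3p strands summed to 22.3 ± 3.74 CPM in diabetic and 18.1 ± 6.56 CPM in control libraries, or 18.2 ± 2.72 and 21.9 ± 7.97 normalized CPM, in that order of groups. miR-130b-5p made up 35.1% ± 8.27 of the members' counts in diabetic and 66.7% ± 17.1 in control libraries.

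The 3 members that passed the filter did not move as 1 group across these libraries, and miR-301a-3p was not included. Over the 6 libraries, Pearson's r of log2 normalized CPM was 0.52 between miR-130a-3p and miR-130b-3p, -0.45 between the 2 arms of miR-130b, -0.093 between miR-130a-3p and miR-130b-5p, and 0.91 between miR-130a-3p and miR-301a-5p. These are descriptions over libraries of 2 groups that share their scaling. Outside the family, the miRNAs most like miR-130b-5p were miR-671 (r = 0.99), miR-6216 (r = 0.99) and miR-1247-5p (r = 0.99), all with lower levels in the diabetic than in the control libraries. miR-1247-5p was near the floor, at 0.524, 0.518 and 0.849 normalized CPM in diabetic replicates 1, 2 and 3, where 3 counts are 0.314, 0.311 and 0.318. The miRNAs named for each member were picked for the highest r of all tested miRNAs outside the family. Those most like miR-130a-3p were let-7i-5p (r = 0.99), miR-18a-5p (r = 0.95) and let-7f-1-3p (r = 0.93), each with its highest level in control replicate 1. Those most like miR-130b-3p were miR-106b-3p (r = 0.95), miR-365-3p (r = 0.95) and miR-93-3p (r = 0.94), each with its lowest level in control replicate 3.

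Other miRNAs pair with overlapping letters, and 3 short lists of related miRNAs were set beside the family. The motif GUGCAA, searched on the strand of the miRNA within its first 8 bases, was present in 5 of 689 rows (0.726%), the 3 sequenced 3p strands of the family and both miR-19 strands of the growth-promoting miR-17-92 cluster. AGUGCA was present there in 7 rows (1.02%), among them the same 3 family strands and the miR-148a, miR-148b and miR-152 strands, of which miR-148a-3p dominates these vesicles. Printed with their seeds in capitals to show this overlap, these 2 relatives differ from the family seed by a shift of a base.
miR-19b-3p: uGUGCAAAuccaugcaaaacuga
miR-148a-3p: uCAGUGCAcuacagaacuuug
None of the 7 tested members of the 3 lists was called, beside 1.66% of all tested miRNAs. In the miR-148 and miR-152 list, miR-148a-3p and miR-148b-3p had log2 fold changes of -0.85 (SE 0.39) and -0.71 (SE 0.34) and miR-152-3p had 0.99 (SE 0.50). In the miR-19 list, miR-19b-3p stood at 138 ± 23.5 normalized CPM in diabetic and 63.5 ± 15.9 in control libraries (SD, n = 3 each). Its log2 fold change was 1.12 (SE 0.36), and that of miR-19a-3p was -0.36 (SE 0.34). In the list of miR-27, which like miR-130 represses PPARG, the log2 fold changes were -0.31 (SE 0.36) for miR-27a-3p and 0.16 (SE 0.37) for miR-27b-3p. The median log2 fold changes of the lists were -0.71 (n = 3), 0.38 (n = 2) and -0.076 (n = 2), beside 0.019 over all 362.

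**Figure D4:**
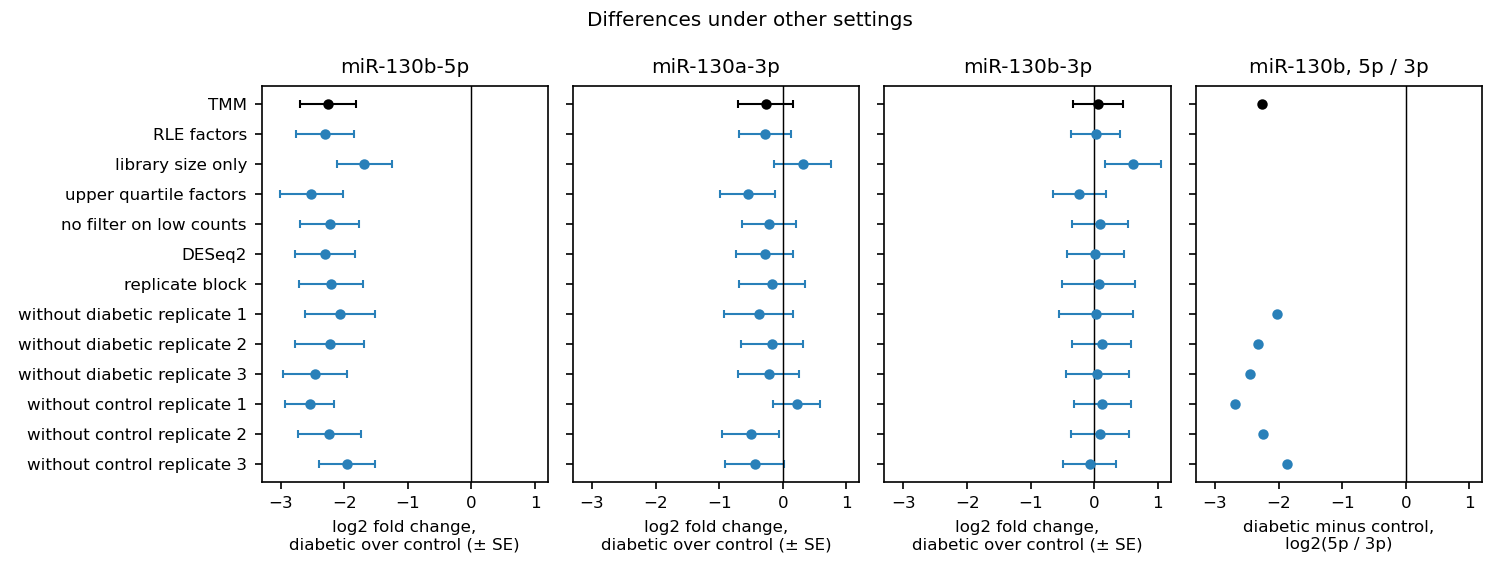
Log2 fold changes of the 3 tested members (± SE) and the arm log-ratio difference of miR-130b, diabetic over or minus control, as reported (black) and under other scalings, filters, tools and with 1 library left out (blue). miR-130b-5p lies between -2.54 and -1.69 throughout. miR-130a-3p (-0.55 to 0.31) and miR-130b-3p (-0.23 to 0.61) lie on both sides of 0 and change sign with the scaling.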

How the data were processed

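The authors deposited whole-number counts per mature miRNA for 6 libraries (3 diabetic, 3 control) in both tables, equal in 4584 cells, and in the second table CPM, a log2 fold change of mean CPM and p-values. Per the submitters' processing notes the build was rn6; the aligner, the counting tool, the annotation release and the treatment of reads shared by similar miRNAs are not given in the sources used here. Counts were tested with edgeR 4.0.16 (R 4.3.3) by the quasi-likelihood test after filterByExpr (minimum count 10, minimum total 15; 362 of 764 rows kept) and TMM scaling, with Benjamini-Hochberg adjustment over the 362; DESeq2 1.42.0 was an alternative. The SE is the size of the fold change over the square root of F. The fit was tested on simulated data with as many miRNAs raised as lowered, which does not probe the choice of scaling. Arm ratios used a pseudocount of 0.5 and level ratios exact permutation tests (Python 3.11.15, SciPy 1.17.1). Log2 CPM for likeness had a prior count of 2, and 3 miRNAs were named per member. Sequences came from RefSeq (GRCr8). Groups and numbers were read from the titles. No label says that each library is a separate animal, so the spread behind the p-values may be technical. Between libraries of a group the chi-square per degree of freedom was at least 618, so none was counted as a copy of another; this does not show that they are separate animals. The members and lists were chosen with earlier results of these data known. Text names all members, the other family rows, the 3 most similar miRNAs per member, the 3 hairpins nearest miR-130b in rank and the listed relatives. The alternatives were other scalings, no filter, another tool, a replicate block, other pseudocounts and leaving out each library.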

Additional observations from a re-analysis of the deposited data

How the results depend on the processing

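The number of calls over all tested miRNAs was 6 in the quasi-likelihood fit, 49 with library size only (45 higher, 4 lower, so 91.8% higher against 33.3%), 2 with upper quartile factors, 42 with DESeq2 and 0 to 49 with 1 library left out (0 without diabetic replicate 1, diabetic replicate 2, control replicate 2 or control replicate 3, each with 57 to 59 at unadjusted p under 0.05; 22 without diabetic replicate 3; 49 without control replicate 1). With no filter on low counts it was 9 (55.6% higher), with RLE factors 4 (50% higher) and with DESeq2 42.9% were higher. With the replicate number as a block it was 57, 26 of them higher; deviations of same-numbered libraries correlated at 0.28, 0.0012 and 0.25 for numbers 1, 2 and 3, and diabetic replicate 2 correlated best with control replicate 3, so the numbers were not taken as pairs. miR-130b-5p stayed lower under all 12 alternatives (-2.52 with upper quartile factors, no longer called; -2.54 to -1.96 with 1 library left out). The log2 fold change of miR-130a-3p was 0.31 with library size only, -0.55 with upper quartile factors and -0.50 to 0.22 with 1 library left out, and that of miR-130b-3p was -0.23 with upper quartile factors and -0.067 to 0.13 with 1 library left out. The miR-130b arm difference lay between -2.69 and -1.86 with 1 library left out, and at -2.27 within replicate numbers (the block). The summed members' difference, -22.4 CPM, was -41.1 with TMM-scaled library sizes and -27.1 to -18.5 with 1 library left out. miR-301a-3p had no main value; without the filter its log2 fold change was -2.23 (SE 1.04). The causes were not tested. At 21 to 57 counts per library for miR-130b-3p and 15 or fewer for miR-301a-3p, depth limits the precision.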
